A study of Mus musculus with 4 samples.

Results

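The proteasome genes described here were 46 of the 22180 genes that the arrays named. They were chosen by name: every gene whose symbol begins with Psm, a letter from a to g and a digit, read by a probe set annotated to exactly 1 gene, without the immunoproteasome genes Psmb8, Psmb9 and Psmb10. The naming rule uses no expression values, but the members were chosen with earlier results of these data known. Where a gene had several such probe sets, the one with the highest mean over the tumours was taken. Of the 46 members, 13 were subunits of the core particle, 17 were subunits of the regulatory particle and 16 were assembly chaperones, activators, an inhibitor, tissue-restricted paralogues or genes that share only the name.

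The data were total RNA from 4 primary mouse neuroblastoma-model tumours, measured on 1 Affymetrix array each. All 4 tumours carried mutant Alk, the TH-MYCN transgene and Stat6-/- on a mixed C57BL\6 x 129Sv/J background, so they formed 1 group with no control. In this model MYCN is driven in cells that make tyrosine hydroxylase, and the tumours arise in the sympathetic nervous system. The labels give neither the Alk allele nor the animals' age, and they do not say whether each tumour came from its own animal, so the spread between tumours may be partly technical. Stat6-intact tumours were not analysed here. The labels name a neck muscle as the tissue, but 0 of 10 skeletal muscle markers lay above the background floor, whereas all 7 measured sympathoadrenal markers did. Xist, expressed where an X chromosome is silenced, was at 10.13 in tumour 4 and at 3.89 to 3.95 in the rest, so what sets tumour 4 apart cannot be told apart from sex. With 1 group there is no contrast and no p-value, and all values below are descriptions on the deposited log2 scale.

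The proteasome is the protease that degrades proteins tagged with ubiquitin. Its core particle is a barrel in which rings of alpha subunits gate access and rings of beta subunits hold the active sites. The regulatory particle caps the barrel: its base contains ATPases that unfold the substrate, and its lid removes the ubiquitin chain. Subunits are needed in fixed proportions, and in mammals the transcription factor encoded by Nfe2l1 raises many subunit genes together when proteasome activity is short.

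The promoters of 6 subunits are shown as those that hold a motif described below and as the pair on chromosome 3. Psmb5, Psmb6, Psmc6 and Psmd12 are the core and regulatory particle subunits whose upstream windows held the antioxidant response element core, the motif through which Nfe2l1 and Nfe2l2 act. Psmb4 and Psmd4 are neighbours on chromosome 3 and behaved unlike the other subunits in tumour 4. Each sequence is the 250 bases before the gene's start, 5′ to 3′ on the gene's strand, from RefSeq on build GRCm38.p6. The windows are chr14:54617996-54618245 on the minus strand for Psmb5, chr11:70525107-70525356 on the plus strand for Psmb6, chr14:45329574-45329823 on the plus strand for Psmc6, chr11:107479278-107479527 on the plus strand for Psmd12, chr3:94886959-94887208 on the minus strand for Psmb4 and chr3:95042615-95042864 on the minus strand for Psmd4. Capitals mark TGACNNNGC on either strand in the first 4 and CCAAT on either strand in Psmd4. The Psmb4 window held neither.
Psmb5: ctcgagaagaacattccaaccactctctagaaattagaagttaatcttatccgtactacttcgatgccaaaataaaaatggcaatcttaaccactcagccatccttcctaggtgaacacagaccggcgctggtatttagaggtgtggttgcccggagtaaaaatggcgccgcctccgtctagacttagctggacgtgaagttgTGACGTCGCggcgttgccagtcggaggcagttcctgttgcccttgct
Psmb6: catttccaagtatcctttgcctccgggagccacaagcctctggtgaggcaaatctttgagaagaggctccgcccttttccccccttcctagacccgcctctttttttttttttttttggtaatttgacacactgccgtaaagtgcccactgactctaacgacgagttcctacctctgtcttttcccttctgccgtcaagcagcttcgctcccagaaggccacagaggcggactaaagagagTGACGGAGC
Psmc6: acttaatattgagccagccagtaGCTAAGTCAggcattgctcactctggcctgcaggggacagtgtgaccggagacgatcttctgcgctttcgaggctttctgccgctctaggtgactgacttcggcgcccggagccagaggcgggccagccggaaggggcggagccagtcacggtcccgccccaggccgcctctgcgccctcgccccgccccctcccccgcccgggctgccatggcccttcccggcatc
Psmd12: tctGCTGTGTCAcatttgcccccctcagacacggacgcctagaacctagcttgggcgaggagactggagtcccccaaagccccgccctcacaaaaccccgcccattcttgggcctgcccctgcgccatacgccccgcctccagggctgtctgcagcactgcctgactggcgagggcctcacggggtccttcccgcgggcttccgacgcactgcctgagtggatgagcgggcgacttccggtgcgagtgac
Psmb4: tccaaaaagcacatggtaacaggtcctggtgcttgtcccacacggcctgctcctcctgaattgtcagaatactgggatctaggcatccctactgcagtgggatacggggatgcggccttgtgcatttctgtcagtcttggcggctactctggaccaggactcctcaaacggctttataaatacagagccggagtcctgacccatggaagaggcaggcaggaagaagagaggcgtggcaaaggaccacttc
Psmd4: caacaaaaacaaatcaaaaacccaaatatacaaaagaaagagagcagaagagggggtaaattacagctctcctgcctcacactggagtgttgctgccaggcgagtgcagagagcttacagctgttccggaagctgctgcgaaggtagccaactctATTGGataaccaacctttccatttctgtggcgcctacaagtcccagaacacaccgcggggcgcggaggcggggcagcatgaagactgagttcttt

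Nearly the whole proteasome was above background in these tumours. The background floor was set at 6.17, the 95th percentile of the mean values of 1394 genes for smell and pheromone receptors, none of which belongs in a tumour. Genes with a higher 4-tumour mean are called detected. Of the 46 members 41 were detected, where 40.5% of all genes were. By role these were 11 of 13 measured core particle subunits, 17 of 17 regulatory particle subunits, 4 of 4 core particle chaperones, 3 of 3 regulatory particle chaperones, 4 of 4 activators, the 1 inhibitor and 1 of the 2 genes that share only the name, Psme3ip1. Of the tissue-restricted paralogues 0 of 2 were detected. The core particle has 14 genes of this kind, but Psma4, an alpha ring subunit, was read only by 2 probe sets annotated to several genes and was not used.

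The 5 members under the floor were of 3 kinds. Psma8, the testis paralogue of Psma7, measured 4.48, 4.46, 4.64 and 4.74 in tumours 1 to 4. Psmb11, the catalytic subunit that replaces Psmb5 in thymic cortical epithelium, measured 4.59, 4.77, 4.77 and 4.78. Psmc3ip, a meiotic recombination factor that shares only its name with the subunits, measured 5.95, 6.04, 5.86 and 5.86. These are not subunits of the constitutive proteasome. The other 2 are: Psmb3, a structural beta subunit, measured 6.11, 6.40, 5.82 and 5.98, with a mean just below the floor and tumour 2 above it. Psma5, an alpha ring subunit, measured 3.97, 4.33, 4.15 and 4.12 on the brighter of its 2 probe sets and 3.999, 3.63, 3.51 and 3.67 on the other. Both Psma5 readings lay near the receptor median of 4.01, and a gene under the floor is undetermined rather than absent. Just above the floor were Psmd9 at 6.48 ± 0.23 and Psmg3 at 6.54 ± 0.08 (SD, n = 4).

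**Figure D1:**
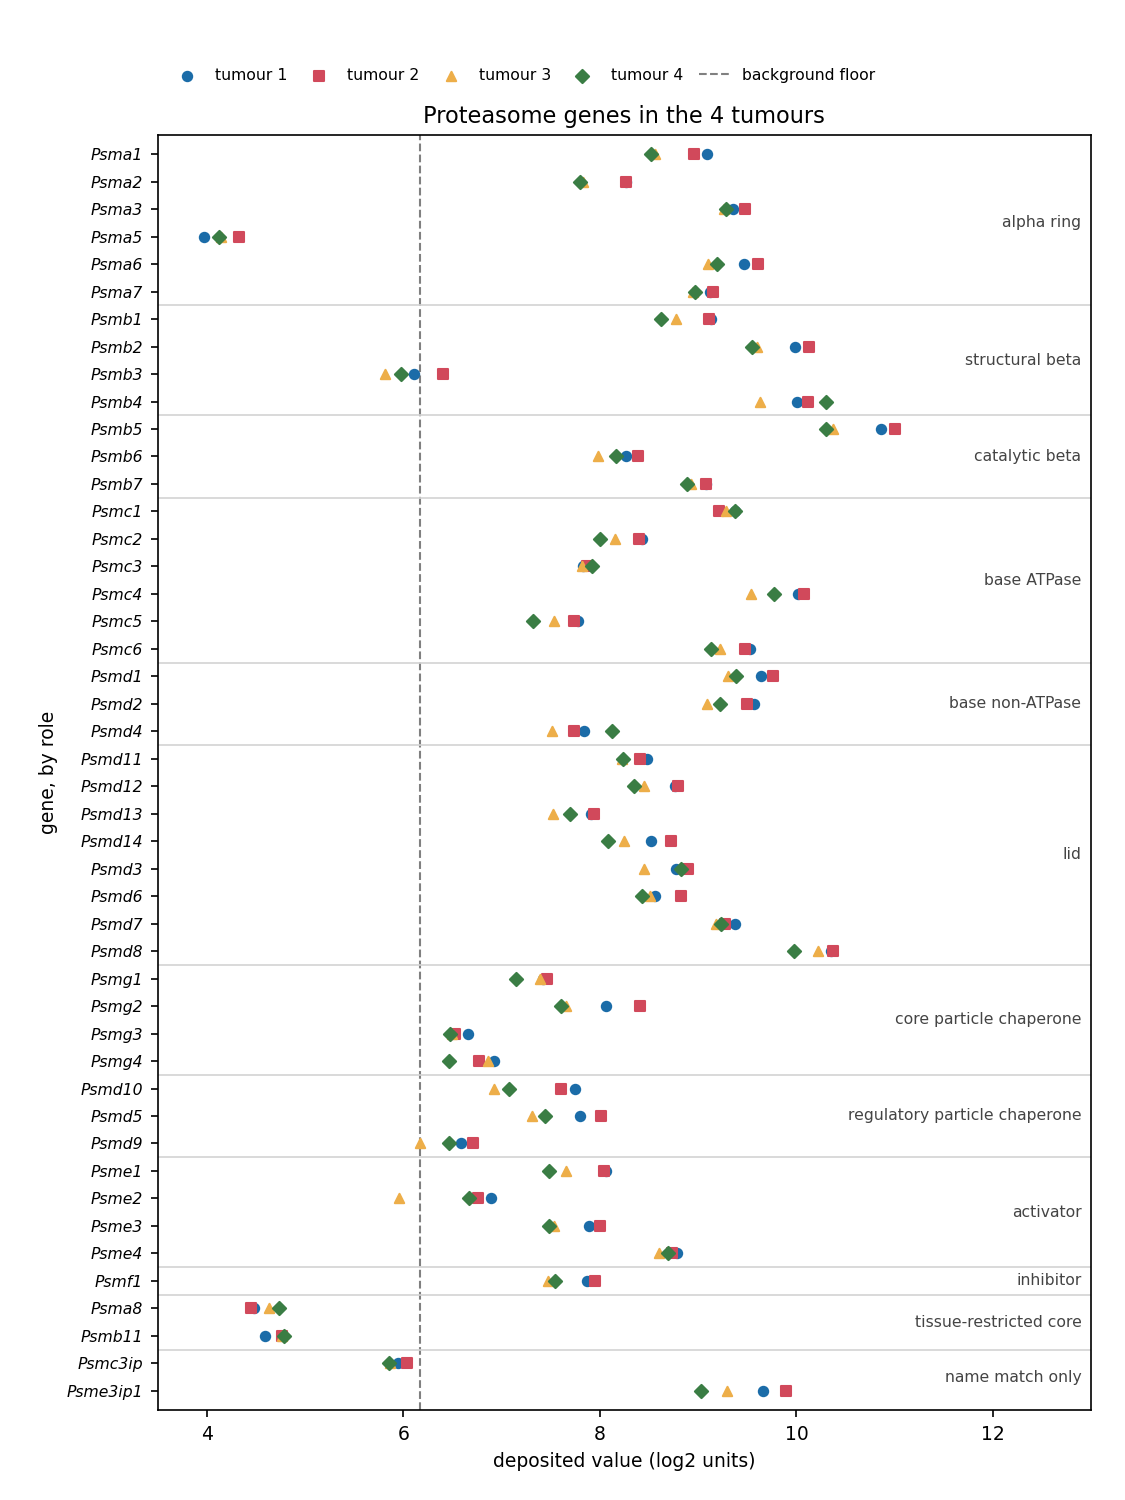
Deposited log2 values (horizontal axis, log2 units) of the 46 proteasome genes, ordered by role, with 1 symbol per tumour and the background floor of 6.17 as a dashed line. The 41 detected genes have means right of the line, and Psma5, Psma8, Psmb11, Psmb3 and Psmc3ip have means left of it. Levels of different genes depend on their probes and should not be set against each other.

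No detected member varied as much as 2-fold between tumours. A range of at least 1 log2 unit was found in 0 of 41 members, where 4.26% of detected genes had one. At that share few of 41 genes would have one, so the 0 does not set the members apart. A range of at least 0.5 was found in 17 of 41, where 35.1% of detected genes had one, so the members were not generally flat. The 11 detected core particle subunits had a median range of 0.51 (from 0.20 to 0.70), and the 17 regulatory particle subunits had a median range of 0.43 (from 0.11 to 0.63). The median over all detected genes was 0.41. Of the core particle subunits 6 of 11 had a range of at least 0.5, and of the regulatory particle subunits 3 of 17 did. The core particle had the wider median range under all 12 settings tried, the one reported included, by 0.033 to 0.13 log2 units. The smallest difference came with a further quantile normalization, which gives all arrays the same distribution. There the medians were 0.36 and 0.32, so offsets between arrays may be part of the reported ranges and of their difference. Several of these settings could add nothing: the other floors and the unchecked gene symbols left the reported difference of 0.083 unchanged. All settings reuse the same 4 tumours, so their number is no measure of support. The ranges of the particles overlapped widely.

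**Figure D2:**
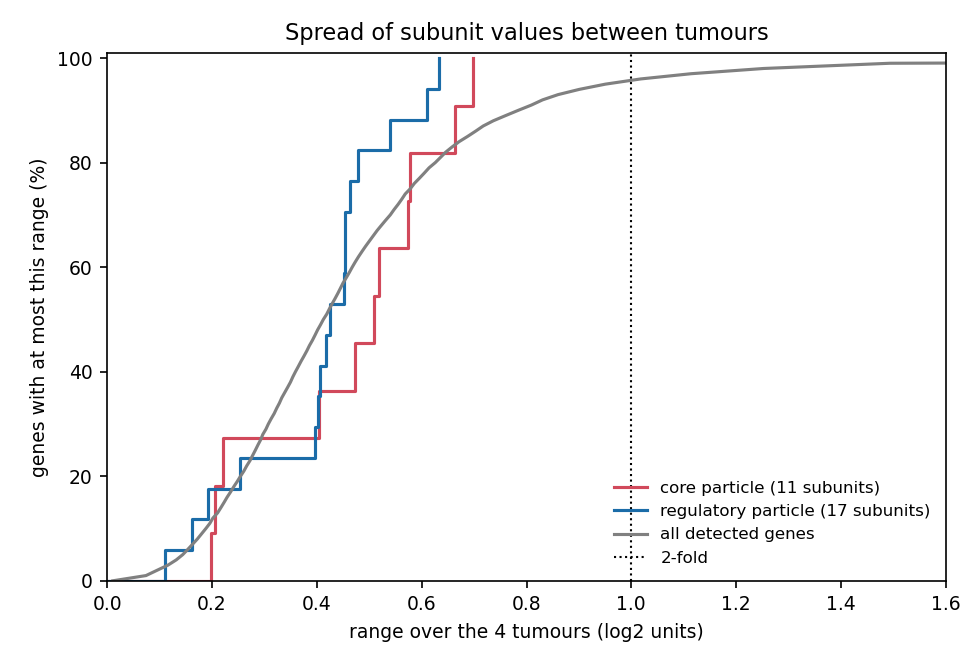
Share of genes (vertical axis, percent) whose range over the 4 tumours is at most the value on the horizontal axis (log2 units), for 11 core particle subunits, 17 regulatory particle subunits and all detected genes. Both particles end before the dotted line at 1 log2 unit (2-fold), with widest ranges of 0.70 and 0.63. Of all detected genes 4.26% reach it, a share at which few of 11 or 17 subunits would.

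On the deposited scale most members were highest in tumour 1 or 2 and lowest in tumour 3 or 4, and part of this was shared by genes in general. Of the 41 detected members 22 were highest in tumour 2, where 26.9% of detected genes were, and 16 were highest in tumour 1, where 46.6% of detected genes were. None was highest in tumour 3, against 11% of detected genes, and 3 were highest in tumour 4, against 15.5%. The lowest value lay in tumour 1 for 0 members, against 7.52% of detected genes, in tumour 2 for 1, against 17.8%, in tumour 3 for 20 members, against 36.1% of detected genes, and in tumour 4 for the same number, against 38.6%. All detected genes together deviated from their own means by medians of 0.12, 0.044, -0.085 and -0.082 in tumours 1 to 4. For this reason each member is also given as a relative deviation: its difference from its own 4-tumour mean, minus the median of the same difference over detected genes of like level.

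After this step the core particle was higher than genes of like level in tumour 2 and lower in tumour 3. The median relative deviation over the 11 core particle subunits was 0.10 ± 0.09 (SD over subunits) in tumour 2, with 11 of 11 above 0, and -0.11 ± 0.10 in tumour 3, with 3 of 11 above 0. In each tumour 49.9% of detected genes lay above 0. It was -0.0034 ± 0.10 in tumour 1 and -0.040 ± 0.17 in tumour 4. For the 17 regulatory particle subunits the median was 0.068 ± 0.11 in tumour 2, with 13 of 17 above 0, and -0.0066 ± 0.10 in tumour 3, with 8 of 17 above 0. In tumours 1 and 4 it was -0.0051 ± 0.08 and -0.011 ± 0.17. These shifts are small: the largest of them, in the core particle, is about the size of the SD over its subunits.

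The core minus regulatory difference of the medians was 0.0017, 0.031, -0.11 and -0.029 in tumours 1 to 4. The widest gap was thus in tumour 3, but not under every setting. With means over subunits in place of medians the difference was 0.065 in tumour 2 and -0.048 in tumour 3. Without tumour 1 it was 0.069 in tumour 2 and -0.066 in tumour 3. The 4 values come from 1 group and the subunits of a particle are not replicates, so the difference between the particles has no test here.

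**Figure D3:**
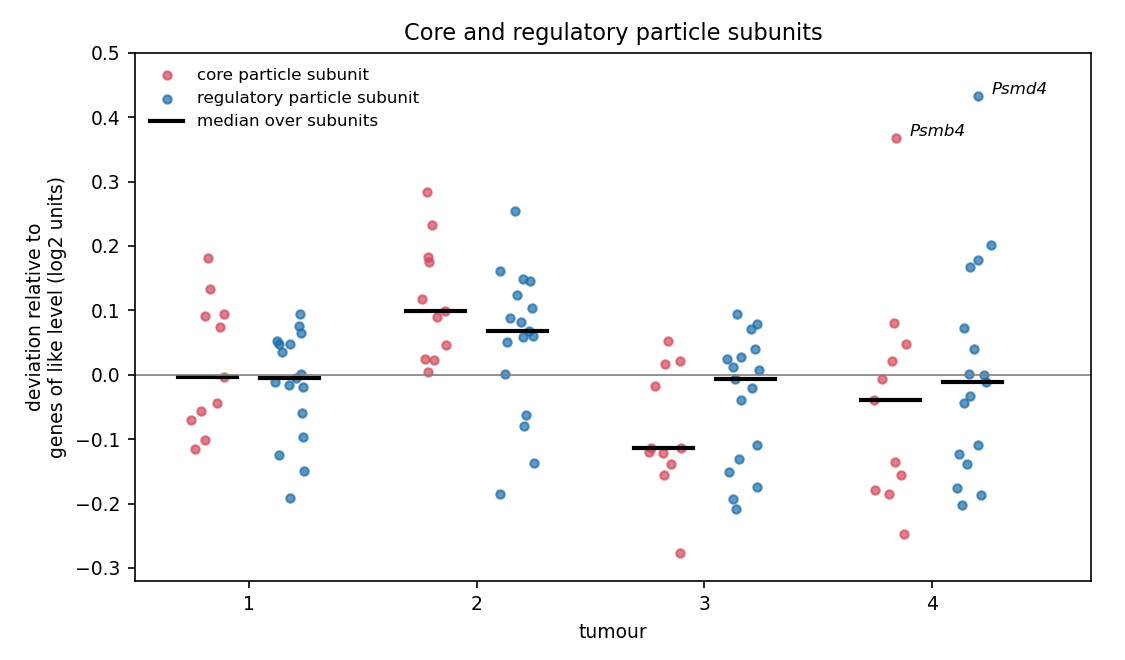
Deviation from the 4-tumour mean relative to genes of like level (vertical axis, log2 units) of each core particle subunit (red) and each regulatory particle subunit (blue) in tumours 1 to 4, with bars at the medians over subunits. All 11 core particle points lie above 0 in tumour 2, the core median is -0.11 and the regulatory median -0.0066 in tumour 3, and Psmb4 and Psmd4 stand above the rest in tumour 4.

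Growth genes also had their highest median in tumour 2. The 7 detected cell cycle markers of a list of 8 had median relative deviations of 0.04, 0.18, -0.09 and -0.17 in tumours 1 to 4, with 7 of 7 above 0 in tumour 2. The 7 detected MYC target genes of a list of 8 had medians of 0.03, 0.14, 0.04 and -0.12. Sympathoadrenal markers lay the other way, with -0.27 in tumour 2 and 0.26 in tumour 4. Markers of other cells also differed between tumours. The detected fibroblast markers, 3 of 5 measured, had medians of 0.53, -0.48, 0.18 and -0.39 in tumours 1 to 4, and the detected leukocyte and macrophage markers, 4 of 7 measured, had -0.0072, 0.080, -0.49 and 0.19. The mean level over the 5 measured fibroblast markers was 6.48, 5.71, 5.89 and 5.65. Of the endothelial markers 1 of 4 was detected, and of the Schwann cell markers 0 of 2. In bulk tumours fewer cells of a type and less RNA per cell cannot be told apart, and the part that proliferation or the share of tumour, fibroblast or immune cells has in the proteasome shifts was not tested.

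The 3 catalytic beta subunits, which hold the proteolytic sites, differed in how much they varied. All were highest in tumour 2, where 26.9% of detected genes were, but Psmb7 only just. Psmb5, the chymotrypsin-like subunit and target of bortezomib, measured 10.86, 11.002, 10.38 and 10.30 in tumours 1 to 4. Its range of 0.70 was the widest of the detected core and regulatory particle subunits, with tumours 1 and 2 high and tumours 3 and 4 low. Psmb6, the caspase-like subunit, measured 8.26, 8.39, 7.98 and 8.16, with tumour 3 lowest. Psmb7, the trypsin-like subunit, measured 9.077, 9.082, 8.93 and 8.88, a range of 0.20. Relative to genes of like level it was at 0.0038 in tumour 2 and highest in tumour 3, at 0.053. Only 11.4% of detected genes had a smaller range than Psmb7, whereas 85.6% had a smaller range than Psmb5. RefSeq lists pseudogenes named after Psma5, Psmb5, Psmb6 and Psmb7, and whether these probe sets also read them was not tested.

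The alpha ring and the structural beta subunits build the barrel and its gate. On the deposited scale most had tumours 1 and 2 above tumours 3 and 4, as Psmb5 had. The medians of all detected genes had this order too (0.12, 0.044, -0.085 and -0.082). Psma1 had the widest range of the ring, with 9.10, 8.96, 8.57 and 8.52 in tumours 1 to 4, and Psma7 the narrowest, with 9.12, 9.16, 8.95 and 8.97. Psma2 and Psma6 resembled Psma1, with ranges of 0.47 and 0.52, and Psma3 was nearly as even as Psma7, with 9.36, 9.48, 9.26 and 9.29. Among structural beta subunits Psmb1 measured 9.13, 9.11, 8.77 and 8.62, and Psmb2 measured 9.98, 10.13, 9.60 and 9.55. In both, tumours 1 and 2 lay above tumours 3 and 4. Psmb4 broke this order, with 10.003, 10.12, 9.63 and 10.30, and was highest in tumour 4. Relative to genes of like level Psmb5 was at 0.13, 0.28, -0.16 and -0.25 in tumours 1 to 4. Psma1, Psma2, Psma6, Psmb1 and Psmb2 also lay below 0 in tumours 3 and 4. Psma3, at -0.12, 0.046, 0.022 and 0.048, and Psma7, at -0.056, 0.023, 0.017 and 0.022, did not.

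The base ATPases, which form the ring that unfolds substrates, split into varying and even members. Psmc4 varied most, with 10.02, 10.08, 9.54 and 9.77 in tumours 1 to 4, and was lowest in tumour 3. Psmc2, Psmc5 and Psmc6 had ranges of 0.43, 0.46 and 0.41 and were lowest in tumour 4. A dimmer Psmc2 probe set, with its mean under the floor, measured 5.92, 6.34, 5.90 and 6.00 and was lowest in tumour 3. Psmc3 was the most even member of all, with 7.82, 7.87, 7.81 and 7.92, a range of 0.11 that was larger than that of 2.65% of detected genes. Psmc1 was also even, with 9.38, 9.22, 9.28 and 9.37, and was the single detected member with its lowest value in tumour 2. The ATPases as a group had median relative deviations of 0.055 ± 0.12 in tumour 2 and 0.024 ± 0.11 in tumour 3 (SD over 6 subunits). In tumour 3 Psmc4 was at -0.21 and Psmc6 at -0.0066, and the other 4 lay above 0. The difference between the ATPases and the core particle was not tested.

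The 3 base subunits without ATPase activity were all lowest in tumour 3, where 36.1% of detected genes were. Psmd1 measured 9.64, 9.76, 9.30 and 9.38 in tumours 1 to 4, and Psmd2, with Psmd1 a scaffold that docks ubiquitin-binding factors, measured 9.57, 9.50, 9.09 and 9.23. Psmd4, a ubiquitin receptor, measured 7.83, 7.74, 7.51 and 8.12, and like Psmb4 was highest in tumour 4. The median relative deviation of these 3 subunits in tumour 3 was -0.15 ± 0.03 (SD over subunits), where that of the core particle was -0.11. Psmd4, at -0.17, lies on chromosome 3, whose detected genes had a median of -0.11 in tumour 3.

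Of the 8 lid subunits 6 were highest in tumour 2, where 26.9% of detected genes were. The lowest value lay in tumour 3 for 4 and in tumour 4 for 4, against 36.1% and 38.6% of detected genes. Psmd14, the metalloprotease that cuts the ubiquitin chain from the substrate, varied most, with 8.52, 8.72, 8.25 and 8.09 in tumours 1 to 4. Psmd7, its inactive partner, varied least, with 9.37, 9.27, 9.18 and 9.23. The heterodimer thus joins the widest and the narrowest range of the lid, 0.63 and 0.19. Psmd3 measured 8.77, 8.90, 8.45 and 8.83, with tumour 3 alone low. Psmd6, Psmd8, Psmd11, Psmd12 and Psmd13, all structural lid subunits, had ranges between 0.25 and 0.45. The median relative deviation of the lid was 0.092 ± 0.10 in tumour 2 and -0.0044 ± 0.09 in tumour 3 (SD over 8 subunits).

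**Figure D4:**
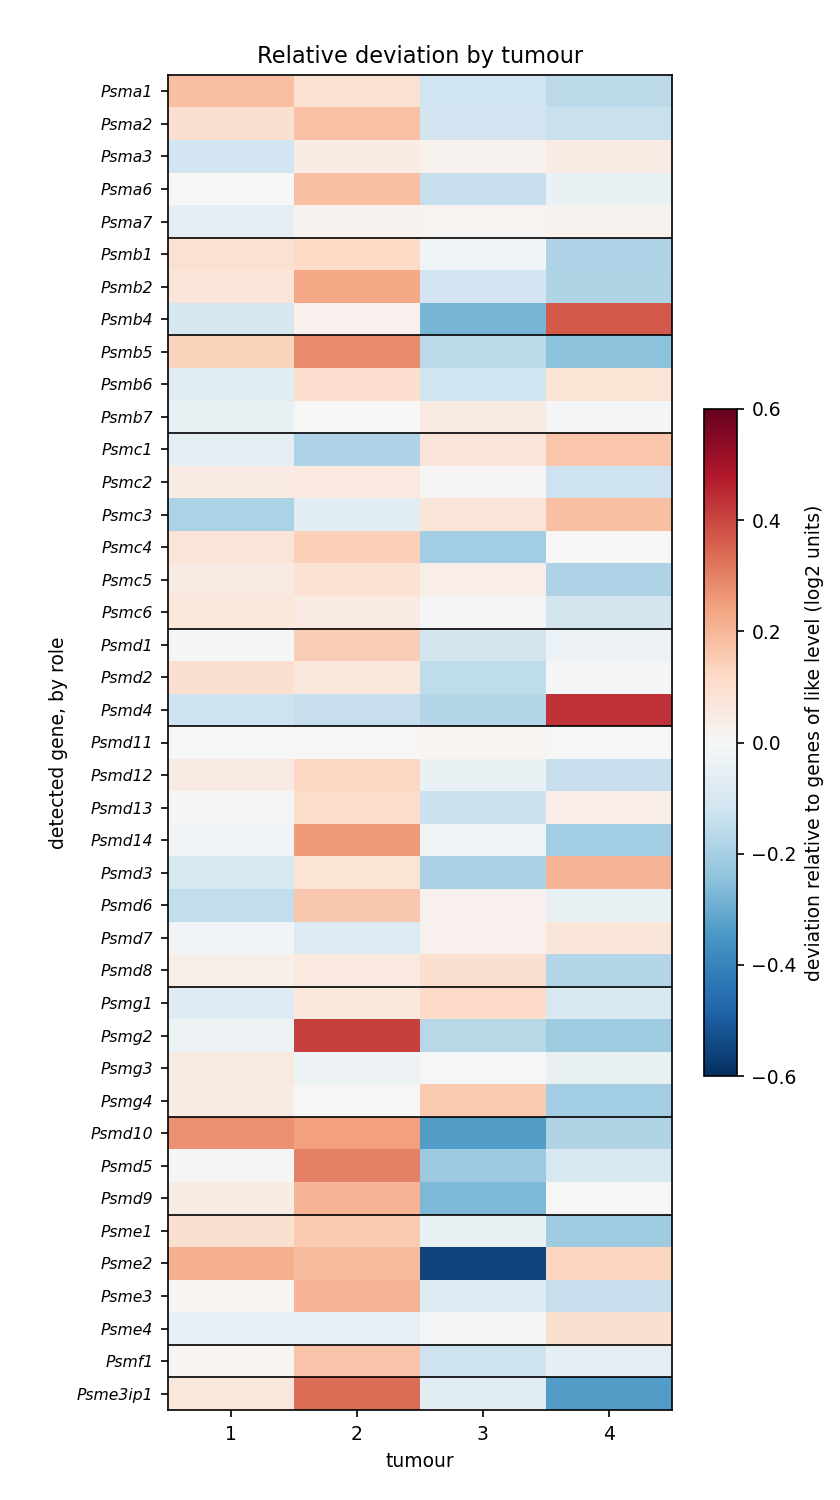
Deviation from the 4-tumour mean relative to genes of like level (colour, log2 units, red higher and blue lower) of the 41 detected proteasome genes in tumours 1 to 4, ordered by role with lines between roles. Tumour 2 is red for 34 of 41 genes, Psme2 is the deepest blue at -0.56 in tumour 3, and Psmb4 (0.37) and Psmd4 (0.43) are red in tumour 4.

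Assembly chaperones of the regulatory particle were among the more variable members. The 3 regulatory particle chaperones, which escort the ATPases into the base, had a median range of 0.70. All were lowest in tumour 3, where 36.1% of detected genes were. Psmd10, also known as the oncoprotein gankyrin and encoded on X, measured 7.74, 7.61, 6.92 and 7.08 in tumours 1 to 4. Psmd5 measured 7.80, 8.01, 7.31 and 7.44, and Psmd9 measured 6.59, 6.71, 6.17 and 6.46. Their median relative deviations were 0.25 ± 0.05 in tumour 2 and -0.27 ± 0.06 in tumour 3 (SD over 3 genes), with the direction of the core particle in both tumours.

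The 4 core particle chaperones, which assemble the alpha ring in pairs, were all lowest in tumour 4, where 38.6% of detected genes were. Psmg2 measured 8.06, 8.41, 7.65 and 7.61 on its brighter probe set, a range of 0.81 with tumour 2 high. The other Psmg2 probe set lay under the floor, at 3.33, 3.45, 3.46 and 3.44. Psmg1, the partner of Psmg2, measured 7.42, 7.46, 7.39 and 7.14, with tumour 4 alone low. Psmg3 was even, with 6.66, 6.53, 6.498 and 6.47, and its partner Psmg4 measured 6.92, 6.77, 6.86 and 6.47. Pomp, the chaperone of the beta ring, taken from the list of related genes, measured 8.49, 8.27, 7.97 and 7.71 and was also lowest in tumour 4.

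Psme2 had the widest range of the detected members. With Psme1 it forms the interferon-inducible activator cap that opens the core for peptide production. It measured 6.89, 6.76, 5.96 and 6.67 in tumours 1 to 4, so tumour 3 alone was low and below the floor. Psme1 did not share this, with 8.07, 8.04, 7.65 and 7.48 and its lowest value in tumour 4. The detected leukocyte and macrophage markers, 4 of 7 measured (Csf1r, Cd68, Lyz2 and C1qa), were also lowest in tumour 3, with a median relative deviation of -0.49 ± 0.12 (SD over 4 genes), while Ptprc and Cd3e lay under the floor in all tumours. The mean level over the 7 measured markers was 6.37 in tumour 3 and 6.74 to 6.79 in the others. The part of immune cells in the low Psme2 value was not tested. Psme3, the nuclear activator, measured 7.89, 7.998, 7.54 and 7.48, and Psme4, which promotes degradation of acetylated histones, was even at 8.78, 8.74, 8.60 and 8.69. Psmf1, an inhibitor of the core particle in vitro, measured 7.87, 7.95, 7.47 and 7.54. Psme3ip1, which binds Psme3 and is no subunit, measured 9.66, 9.89, 9.29 and 9.03, with a range of 0.86.

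The choice of genes left out the 3 immunoproteasome subunits. Psmb8, the interferon-induced counterpart of Psmb5, measured 5.22, 5.27, 5.12 and 5.17, and Psmb9, the counterpart of Psmb6, measured 4.72, 4.57, 4.48 and 4.66. Both lay below the floor in every tumour. Psmb10, the counterpart of Psmb7, was detected and nearly constant, with 7.17, 7.25, 7.13 and 7.09. Each of the 3 catalytic positions was thus read above background for the constitutive subunit, and 1 of the 3 for the inducible one. Of all genes 40.5% were detected, so 1 of 3 does not set the inducible subunits apart. Levels of different probe sets cannot be compared.

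Psmb4 and Psmd4 stood out in tumour 4, and so did their chromosome. Relative to genes of like level Psmb4 was at -0.10, 0.03, -0.28 and 0.37 in tumours 1 to 4, and Psmd4 at -0.12, -0.14, -0.17 and 0.43. The next highest core or regulatory particle subunit in tumour 4 was Psmd3, at 0.20. Over the 435 detected genes of chromosome 3 the median in tumour 4 was 0.27, with 92.2% of them above 0, and the medians in tumours 1 to 3 were -0.083, -0.077 and -0.11. Medians of the other 18 autosomes in tumour 4 ran from -0.037 to 0.018. The 13 detected genes beside the pair, 5 on each side and 3 between them, had a median of 0.31 in tumour 4, with 12 of 13 above 0. Psma5, the other member on chromosome 3, was not detected. Without members on chromosome 3 the core and regulatory particle together had a median of -0.036 ± 0.12 in tumour 4 (SD over 26 subunits), with 9 of 26 above 0, and 0.089 ± 0.10 in tumour 2, with 23 of 26 above 0. DNA copy number was not measured here.

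**Figure D5:**
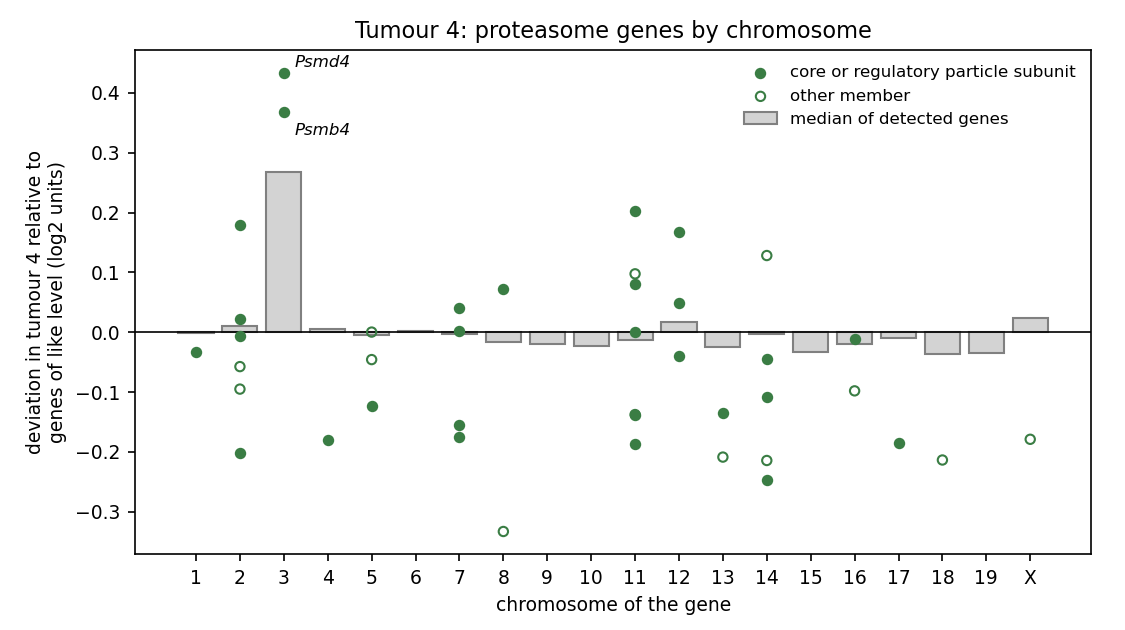
Deviation in tumour 4 relative to genes of like level (vertical axis, log2 units) of each detected proteasome gene, placed by its chromosome (horizontal axis), over bars for the median of all detected genes of that chromosome. The chromosome 3 bar reaches 0.27 and carries Psmb4 and Psmd4, while the bars of the other autosomes lie between -0.037 and 0.018.

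For 3 of the 4 motifs searched, the share of members that held it was close to the share of all genes. RefSeq promoters were found for 38 of the 46 members, 10 of them core and 14 regulatory particle subunits. TGACNNNGC, the antioxidant response element core, was present in 5 of 38 members (13.2%), against 11.5% of all 27025 genes with a promoter. These were Psmb5, Psmb6, Psmc6, Psmd12 and Psmd9. In tumour 2 their median relative deviation was 0.12 with 5 of 5 above 0. That of the 29 detected members without the motif was 0.090 with 24 of 29 above 0. In tumour 1 the medians were 0.048 with 4 of 5 above 0 and 0.010 with 17 of 29 above 0. In tumour 3 the medians were -0.12 with 0 of 5 above 0 and -0.069 with 11 of 29 above 0, and in tumour 4 they were -0.11 with 2 of 5 above 0 and -0.046 with 9 of 29 above 0. The motif was present in 13.62% of detected genes. CCAAT was present in 39.5% of members and 37.5% of all genes, and CACGTG, the E-box that MYC proteins bind, in 7.89% and 6.86%. In detected genes the shares were 40.3% for CCAAT and 10.3% for CACGTG. The E-box was present in 0 of 10 core and 0 of 14 regulatory particle subunits, and the 3 members that held it were Psmd9, Psme3 and Psme3ip1. GGGCGG, the GC box, was present in 55.3% of members, 35.4% of all genes and 66.0% of detected genes. Motifs were searched on both strands of the 250 bases, and no match says only that the letters are not in that window.

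The transcription factors tied to this motif differed in their order of tumours. Nfe2l1 measured 7.99, 7.74, 7.88 and 7.88 in tumours 1 to 4 and was lowest in tumour 2, where most subunits were highest. Nfe2l2, the oxidative stress factor, measured 7.05, 6.94, 6.53 and 6.14, with a range of 0.91. Its tumour 4 value lay below the floor of 6.17, so this range rests in part on background. Tumours 1 and 2 lay above tumours 3 and 4, as in Psmb5 and as in the medians of all detected genes (0.12, 0.044, -0.085 and -0.082). Whether either factor has a part in the order of the subunits was not tested. Mafg, a partner of Nfe2l2, was even at 6.66, 6.47, 6.61 and 6.59, and Maff and Mafk lay under the floor. Nfe2l1 is controlled largely by processing of its protein, which arrays do not measure.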

How the data were processed

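Total RNA of 4 tumours was hybridised to 1-colour arrays. The deposited table holds 41345 probe sets, normalized by the authors with RMA and handled in Partek, per the submitters' processing notes, with no versions or settings. The base of the deposited log values is not stated, and they were taken as log2 from their span of 2.47 to 13.6. Probe sets annotated to 1 gene (23521) were used, and those with several genes (1814) or not listed (16010) were not. The highest mean was kept per gene. Symbols were checked against RefSeq through Entrez identifiers, which matched 23328 and changed 0. Relative deviations used 20 bins of mean level over the 8989 detected genes. The procedure was run on simulated data with larger gene groups than the particles and noise below the spread between these tumours. That run therefore does not show how well small shifts of the particles are recovered. At most 0.215% of values were equal between any 2 arrays. Array depth has no counts, so the number of arrays limits precision.

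The members, gene lists, motifs and rule for named genes were chosen with earlier results of these data known. Values in all 4 tumours were given for the catalytic subunits, for the widest and narrowest member of each role, for members below the floor or with an outlying tumour, and for others chosen after their values were seen. Tumours are numbered in record order. Alternatives were other floors, probe set rules, a further quantile normalization, plain deviations, means over members and leaving out each tumour. Python 3.11.15, numpy 2.4.6, pandas 2.3.3 and matplotlib 3.10.9 were used.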

Additional observations from a re-analysis of the deposited data

Results flagged for a closer look

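A tumour far from the other 3, by Dixon's ratio against its 95% critical value, was found in 1 of 69 sets of deposited values of members and related genes, 5 of 41 sets of relative deviations of detected members and 3 of 13 medians of gene groups. The critical value allows about 1 in 20 for independent sets. These sets share the same 4 arrays, and the lid is part of the regulatory particle. The counts therefore cannot be set against that rate. Psmb11 measured 4.59 in tumour 1, under the floor in all tumours. On the relative scale Psmd4 was at 0.43 in tumour 4 and Psme2 at -0.56 in tumour 3, both described above with the genes that moved beside them. Psma3 was at -0.12 in tumour 1, Psma7 at -0.056 in tumour 1 and Psmd11 at 0.012 in tumour 3, all of which are small. Of the groups, the median of chromosome 3 was at 0.27 in tumour 4, that of the regulatory particle at 0.068 in tumour 2 and that of the lid at 0.092 in tumour 2.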

How the results depend on the processing

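Of 189 values recomputed under another setting, 177 moved by less than the spread used for comparison and 12 moved by more. This spread was the SD over tumours for deviations, the SD over subunits for ranges and 1.5 times for counts. The SD over tumours was 0.089 for the core particle and 0.060 for the core minus regulatory difference. It is taken from the deviations themselves, so a reported shift can nearly vanish and still count among the 177. In tumour 4 the difference was -0.029 as reported and -0.080 without tumour 3, which was counted there too. The unchecked gene symbols could move nothing, because no symbol changed. The 177 is therefore no measure of stability. With plain deviations, which keep the offset between arrays, the core particle was at 0.12, 0.19, -0.22 and -0.15 in tumours 1 to 4 and the regulatory particle at 0.13, 0.15, -0.12 and -0.12. With a range of at least 0.5 in place of 1 the number of variable members was 17. The core minus regulatory difference in tumour 4 was -0.091 with no floor. Leaving out each tumour in turn put the regulatory particle between -0.0079 and 0.048 in tumour 1 and between 0.022 and 0.079 in tumour 2, the lowest without tumour 4. The causes were not tested. The core particle stayed above 0 in tumour 2 (0.087 to 0.19) and below 0 in tumour 3 (-0.22 to -0.063) under the alternatives run, and the core minus regulatory difference in tumour 3 stayed below 0 (-0.11 to -0.048). The regulatory particle lay on both sides of 0 in tumours 3 and 4. Detected members numbered 37 to 46. Leaving out members on chromosome 3 was an alternative chosen after seeing the data. No paired analysis was possible because the tumours form 1 group. Probe sets near the floor mix signal with background, which limits Psmb3, Psmd9, Psme2 and Nfe2l2.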

Other observations

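Of the detected enzymes and adaptors that bind the proteasome 6 of 7 were highest in tumour 1, and of the ubiquitin shuttle factors 1 of 4. Of all 18 detected genes of the related list 12 were highest in tumour 1 and 4 in tumour 2, where 46.6% and 26.9% of detected genes were. Uchl5 and Usp14, deubiquitinases of the regulatory particle, measured 7.28, 7.17, 6.98 and 6.68 and 9.43, 9.21, 9.13 and 8.87 in tumours 1 to 4, both lowest in tumour 4. Sem1, a small lid subunit outside the naming rule, went the other way from the lid, with 8.21, 7.88, 8.36 and 8.26 and its lowest value in tumour 2. Ubqln2, a ubiquitin shuttle, was the most even of the list at 9.25, 9.11, 9.14 and 9.16. Vcp, the segregase that hands substrates to the proteasome, measured 9.68, 9.64, 9.49 and 9.54. Of the 32 related genes 23 were measured by a probe set with 1 gene, so this group is described in part.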
